A study of Mus musculus with 12 samples.

Results

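The hnRNP and SR genes are the 31 genes of the deposited expression table whose symbols begin with Hnrnp, Hnrp or Srsf, processed pseudogenes being left out. They comprise 20 Hnrnp and 11 Srsf genes of 11581 in the table, and the 2 families were examined apart. Every protein-coding gene with such a name in the GENCODE M21 annotation had a row, so none is missing from the table. No gene carried the older Hnrp spelling.

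Heterogeneous nuclear ribonucleoproteins (hnRNPs, encoded by Hnrnp genes) coat nascent transcripts and often silence nearby exons, whereas SR proteins (encoded by Srsf genes) bind exonic enhancers through RNA recognition motifs and recruit the spliceosome through a tail rich in arginine and serine. Both families also act in messenger RNA export, stability and translation. Many of their own transcripts carry exons or introns that send the RNA to nonsense-mediated decay, by which these proteins adjust their own levels and those of their relatives. In T cells they set exon choice in genes such as Ptprc, which encodes the phosphatase CD45.

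Foxp3 encodes the transcription factor that defines regulatory T cells, and scurfy is its loss-of-function allele. The compared CD8 T cells came from CD45.2+ C57BL/6 J mice that carried mixed bone marrow, taken 2 months after reconstitution. In the scurfy group the marrow was from OT-1 Foxp3Scurfy CD45.1+/2+ donors, and in the wild-type group from OT-1 Foxp3wt CD45.1+/2+ donors, each mixed with marrow of CD45.2+ donors. All groups therefore share the OT-1 T cell receptor transgene, which recognises the SIINFEKL peptide, and the chimeric host. The labels name no sort on the CD45 alleles and do not say whether a library is 1 mouse or a pool, so the tests below measure the spread between these libraries, which may be technical. Values exist for the 3 scurfy and 3 wild-type libraries of unstimulated cells. The 3 scurfy and 3 wild-type libraries given peptide for 6 h were not analysed here, since the table deposited for them repeats, value for value, the one for unstimulated cells.

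The libraries held 8852518 to 23149523 reads over the table. Foxp3 has no row, so the genotype labels were not checked on the transcript. All 10 CD8 T cell markers had rows, with Cd8b1 at 21344 to 21911 normalized counts over the 6 libraries, and none of 3 CD4 T cell markers had one. Of 12 B cell markers 7 had rows, summing to 9895 to 11352 in scurfy and 10971 to 11753 in wild type, most of it Ighm. Ms4a1, Cd79a, Pax5 and Bank1 had none. H2-Aa was at 0 to 15.7 in scurfy and 57.2 to 84.1 in wild type. H2-Ab1 (0 to 4.84 and 12.0 to 31.1), H2-Eb1 (1.22 to 7.09 and 15.1 to 37.2) and Cd74 (14.6 to 18.9 and 30.6 to 37.8) also lay lower in scurfy. These 4 of 7 B cell markers did not overlap between groups, beside 13.7% of all genes lower without overlap, while Cd79b, Ighd and Ighm overlapped. Car2, from the erythroid list, was at 101 to 156 in scurfy and 232 to 315 in wild type. Of 10 myeloid, 6 natural killer and 6 erythroid markers, 1 each had a row (Cst3, Eomes and Car2), with Cst3 at 1406 to 1523 in scurfy and 821 to 1131 in wild type. The CD8 markers summed to 72596 to 79915 in scurfy and 65705 to 67116 in wild type, and the part of any of these differences in the results below was not tested. The scurfy libraries lay at -43.5 to -14.4 on the first principal component (35.8% of variance) and the wild-type libraries at 12.3 to 33.8.

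Transcripts of both families tended to be lower in unstimulated scurfy CD8 T cells. Hnrnpf, Hnrnpk, Hnrnpul1 and Srsf6 fell, no member rose, and the other 27 did not pass the test. The log2 fold change, scurfy minus wild type, was negative for 16 of 20 Hnrnp genes and 9 of 11 Srsf genes, with medians of -0.38 and -0.31, beside a median of 0.01 and 48.9% negative over all genes. Summed over the family, Hnrnp transcripts gave 27433 ± 859 normalized counts per scurfy library against 33935 ± 997 per wild-type library (SD, n = 3 each), 19.2% lower. Srsf transcripts gave 16831 ± 359 against 20087 ± 423, 16.2% lower. In bulk RNA, fewer cells that express a gene and less of its RNA per cell cannot be told apart.

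A normalized count is the number of reads of a gene scaled by its library's size factor. Fold changes are on the log2(value + 1) scale, and a gene passed at an adjusted p under 0.05 from limma with Benjamini-Hochberg adjustment over all 11581 genes. By that rule 3 of 20 Hnrnp genes (15%) and 1 of 11 Srsf genes (9.09%) were lower, where 2.35% of all genes were. None of the 31 was higher, also not at an unadjusted p under 0.05 or by edgeR or DESeq2, where 2.12% of all genes were higher in limma. At an unadjusted p under 0.05, 13 Hnrnp and 6 Srsf genes were lower, beside 11.3% of all genes. All scurfy libraries lay below all wild-type libraries for 14 Hnrnp and 5 Srsf genes, beside 13.7% of all genes, and the reverse held for none of the 31, beside 13.4%. At an adjusted p under 0.05 in the authors' deposited table, 6 Hnrnp genes (the 3 named and Hnrnpab, Hnrnph1 and Hnrnpl) and 4 Srsf genes (Srsf6, Srsf3, Srsf5 and Srsf10) were lower, beside 4.76% of the genes given an adjusted p there.

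**Figure D1:**
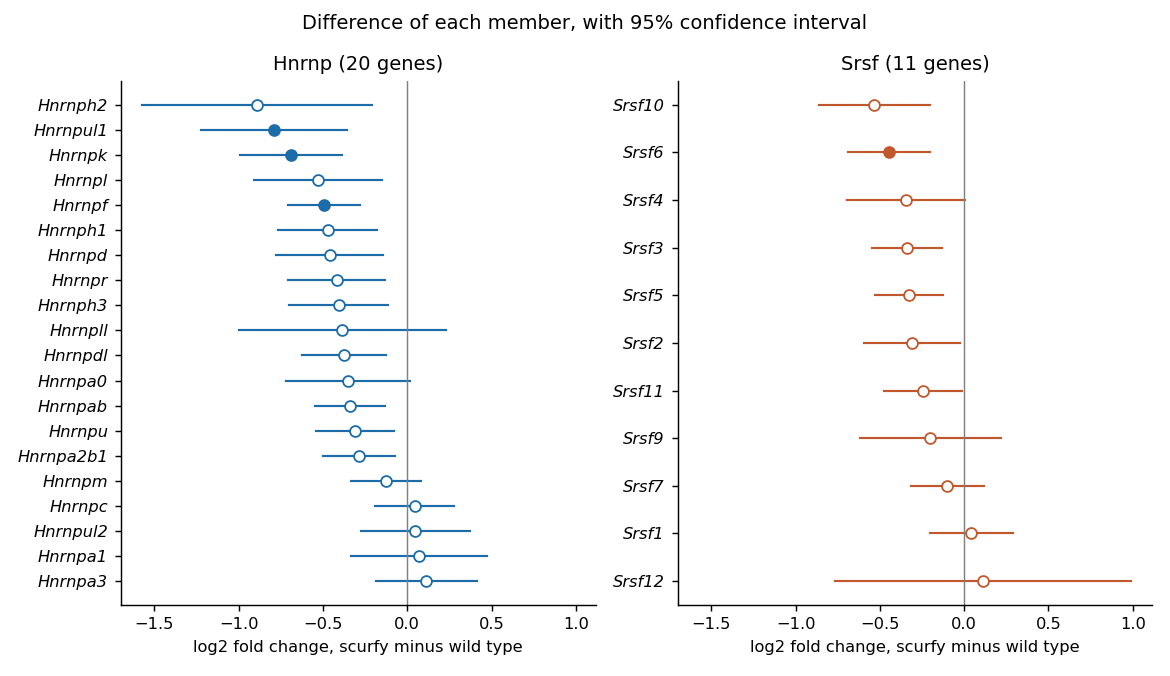
Log2 fold change of each Hnrnp gene (left) and Srsf gene (right), scurfy minus wild type, with its 95% confidence interval from limma. Filled points passed the adjusted threshold. The 3 filled Hnrnp points and the filled Srsf6 lie left of 0, and 6 members lie right of 0.

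Hnrnpf, whose protein binds runs of guanines beside splice sites, had the smallest p of the 31. It was at 2152, 2260 and 2194 normalized counts (scurfy 1, 2 and 3) against 3125, 3290 and 2896 (wild type 1, 2 and 3). The groups did not overlap and the scurfy libraries lay close together. The log2 fold change was -0.49 (SE 0.10, limma adjusted p = 0.0163), and this call ended without wild-type library 2 (adjusted p = 0.0639).

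Hnrnpk encodes a KH-domain protein that binds cytosine-rich RNA and DNA and acts in transcription as well as splicing. It was at 1029, 974 and 810 (scurfy 1, 2 and 3) against 1260, 1496 and 1804 (wild type 1, 2 and 3). The highest scurfy library lay below the lowest wild-type library. The log2 fold change was -0.69 (SE 0.14, limma adjusted p = 0.0177). The call ended without wild-type library 2 or wild-type library 3, with adjusted p up to 0.0753.

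Hnrnpul1 encodes a relative of the nuclear scaffold protein hnRNP U. It was at 438, 394 and 344 (scurfy 1, 2 and 3) against 516, 608 and 984 (wild type 1, 2 and 3). Wild-type library 3 stood well above its group, with an SD of 248 among wild-type libraries against 47.2 among scurfy libraries. The log2 fold change was -0.79 (SE 0.20, limma adjusted p = 0.0408). Its call held without wild-type library 1 and ended without any of the other 5 libraries, with -0.52 (adjusted p = 0.133) without wild-type library 3. With a smooth trend of values over exonic length taken out of each library, the value was -0.69 and the adjusted p 0.0829.

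**Figure D2:**
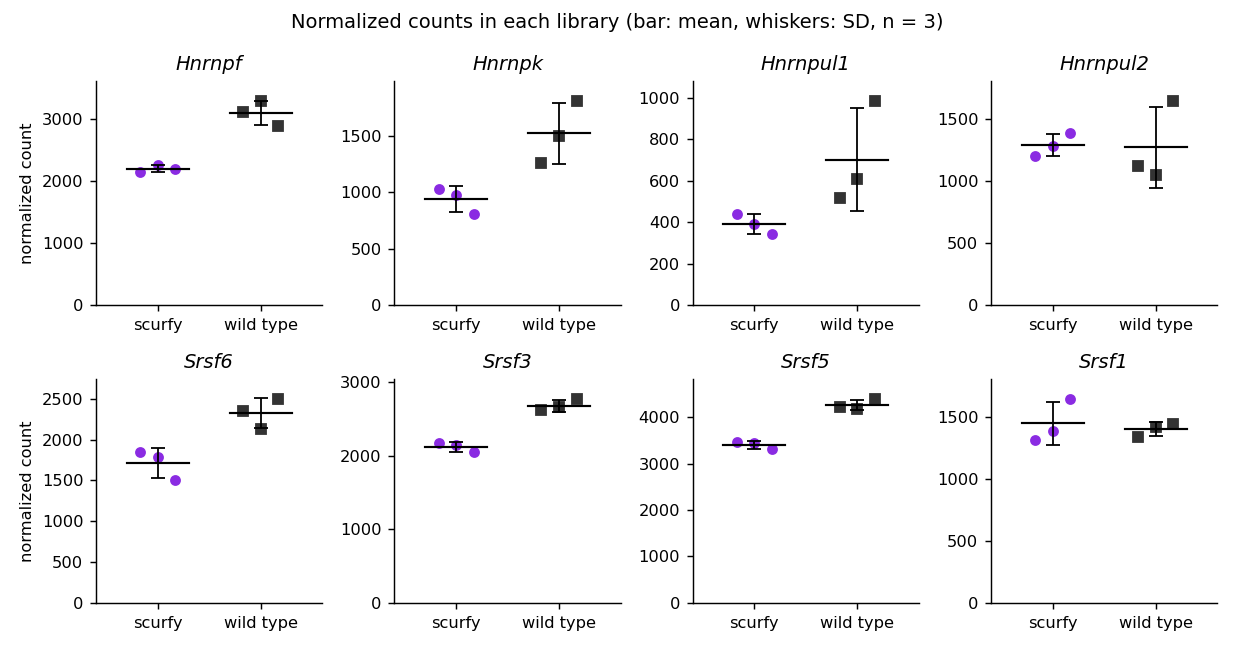
Normalized counts of 8 members in each of the 3 scurfy libraries (circles) and 3 wild-type libraries (squares), with group mean and SD and axes from 0. The groups are apart for Hnrnpf, Hnrnpk, Hnrnpul1, Srsf6, Srsf3 and Srsf5, and overlap for Hnrnpul2 and Srsf1.

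The promoters of the 4 genes that fell are shown as the start regions of the members that passed. They are RefSeq sequences on GRCm38.p6, 250 bases before to 50 after the annotated start, 5′ to 3′ on the gene's strand: Hnrnpf at chr6:117900090-117900389 (plus strand, the first of 4 listed starts), Hnrnpk at chr13:58402068-58402367 (minus), Hnrnpul1 at chr7:25754710-25755009 (minus) and Srsf6 at chr2:162931258-162931557 (plus). Capitals mark matches, on either strand, to the letters of a TATA box (TATAAA), the CCAAT box, a GC box (GGGCGG), an Ets motif (CCGGAAG), the NRF1 core (GCATGCGC) or the YY1 core (AAGATGG). The Ets motif ends and the YY1 core begins with the same letters, so these 2 can overlap.
Hnrnpf: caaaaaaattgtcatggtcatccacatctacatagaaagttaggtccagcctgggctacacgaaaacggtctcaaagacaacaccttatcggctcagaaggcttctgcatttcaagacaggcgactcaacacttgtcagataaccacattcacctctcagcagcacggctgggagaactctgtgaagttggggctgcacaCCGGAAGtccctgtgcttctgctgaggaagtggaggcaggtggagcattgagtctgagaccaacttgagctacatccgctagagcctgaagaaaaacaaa
Hnrnpk: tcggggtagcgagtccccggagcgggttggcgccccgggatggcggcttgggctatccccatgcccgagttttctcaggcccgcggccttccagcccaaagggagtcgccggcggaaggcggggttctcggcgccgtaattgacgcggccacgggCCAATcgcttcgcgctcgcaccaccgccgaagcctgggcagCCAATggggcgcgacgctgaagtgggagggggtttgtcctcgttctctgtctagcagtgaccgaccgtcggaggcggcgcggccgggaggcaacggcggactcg
Hnrnpul1: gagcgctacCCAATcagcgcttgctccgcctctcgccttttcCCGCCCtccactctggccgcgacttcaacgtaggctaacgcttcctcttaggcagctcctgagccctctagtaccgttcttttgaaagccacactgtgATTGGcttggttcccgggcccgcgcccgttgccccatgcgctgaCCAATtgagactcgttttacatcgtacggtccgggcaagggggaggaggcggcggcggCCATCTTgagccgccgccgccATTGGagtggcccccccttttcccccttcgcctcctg
Srsf6: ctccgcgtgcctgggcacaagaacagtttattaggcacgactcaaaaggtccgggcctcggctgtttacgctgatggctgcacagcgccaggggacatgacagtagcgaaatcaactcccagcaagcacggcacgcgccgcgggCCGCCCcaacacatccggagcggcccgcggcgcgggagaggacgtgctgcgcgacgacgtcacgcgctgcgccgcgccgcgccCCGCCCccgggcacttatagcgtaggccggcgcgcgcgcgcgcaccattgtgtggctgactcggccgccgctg
No motif was found in all 4. Hnrnpk held 2 CCAAT matches and Hnrnpul1 4 with 1 GC box and 1 YY1 core, Srsf6 held 2 GC boxes, and Hnrnpf 1 Ets match.

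A promoter was listed for 29 members, all but Hnrnpll and Hnrnpul2, taking the first start of each gene. CCAAT was found in 12 of 18 Hnrnp promoters (66.7%) and 4 of 11 Srsf promoters (36.4%), beside 39.3% of 7915 promoters of genes with a row and 38% of all 27025. The GC box was found in 13 Hnrnp (72.2%) and 10 Srsf promoters (90.9%), beside 66.5% and 35.9%. The Ets motif was found in 2 Hnrnp (11.1%) and 4 Srsf promoters (36.4%), beside 21% and 9.14%. TATAAA occurred in 2 promoters of each family, beside 6.17% of genes with a row and 14.2% of all. The NRF1 core occurred in Srsf7 alone and the YY1 core in Hnrnpul1 alone, beside 6.1% and 7.92% of genes with a row and 2.8% and 6.46% of all. The median promoter held 29.5 CpG dinucleotides in the Hnrnp family and 32 in the Srsf family, against 22 over genes with a row and 7 over all promoters. These letter matches are a description and show no binding.

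The relatives of Hnrnpf, which also bind guanine runs, lay below wild type without passing. Hnrnph2 had the most negative difference of the family but few reads: it was at 54.5, 31.7 and 39.0 (scurfy 1, 2 and 3) against 71.8, 79.7 and 78.1 (wild type 1, 2 and 3). The groups were apart, with a log2 fold change of -0.89, SE 0.32 and limma adjusted p = 0.121. Hnrnph1 was at -0.47 (adjusted p = 0.0649) and Hnrnph3 at -0.41 (0.103), with no overlap between groups for either.

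The hnRNP A/B genes were divided. Hnrnpa2b1, whose protein silences exons and guides RNA transport, was at 5080, 5106 and 4480 (scurfy 1, 2 and 3) against 6221, 5915 and 5721 (wild type 1, 2 and 3). Each scurfy library lay below each wild-type library, and the log2 fold change was -0.29 (SE 0.10, limma adjusted p = 0.117). Hnrnpa3 had the most positive difference of its family, at 449, 437 and 409 against 384, 422 and 391. These groups overlapped, and the log2 fold change was 0.11 with a 95% interval of -0.19 to 0.41. Hnrnpa1, the classical competitor of SR proteins, was at 206 to 262 in scurfy and 193 to 253 in wild type (log2 fold change 0.07, interval -0.33 to 0.47). Hnrnpa1 has processed copies in the genome that can share reads, so its value is uncertain. Hnrnpa0 was at -0.35 with overlapping groups, and at -0.13 without wild-type library 3.

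Hnrnpab, Hnrnpd and Hnrnpdl encode related proteins, of which hnRNP D, also called AUF1, binds AU-rich elements and affects messenger RNA decay. Hnrnpab was at 3745, 3446 and 3342 (scurfy 1, 2 and 3) against 4271, 4450 and 4602 (wild type 1, 2 and 3). The groups did not overlap, with a log2 fold change of -0.34, SE 0.10 and limma adjusted p = 0.0629. Hnrnpd was at -0.46 (adjusted p = 0.0924) and Hnrnpdl at -0.38 (0.0833), both without overlap.

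Hnrnpl, which binds CA repeats and represses exons of Ptprc, was at 509, 508 and 528 (scurfy 1, 2 and 3) against 553, 739 and 1004 (wild type 1, 2 and 3). The groups were apart, but the wild-type libraries were spread, and the log2 fold change was -0.53 (SE 0.18, limma adjusted p = 0.101). It passed without wild-type library 1 (-0.74, adjusted p = 0.0319) and was at -0.31 (0.326) without wild-type library 3. Its paralogue Hnrnpll, known for the switch of CD45 isoforms in activated T cells, was at 75.7 to 94.4 in scurfy and 81.1 to 166 in wild type, with overlapping groups (log2 fold change -0.38, adjusted p = 0.474). It was at -0.10 without wild-type library 3 and at -0.62 without wild-type library 1.

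Hnrnpr, a relative of Syncrip, was at 400 to 443 in scurfy and 540 to 603 in wild type, and Hnrnpu, which binds chromatin and nascent RNA, at 1348 to 1610 and 1805 to 1918. Neither passed (-0.42, limma adjusted p = 0.0889, and -0.31, adjusted p = 0.112), although neither overlapped. Hnrnpm, which binds GU-rich introns, was at 3682, 3461 and 3883 (scurfy 1, 2 and 3) against 3984, 4084 and 3953 (wild type 1, 2 and 3). Its groups were barely apart, with a log2 fold change of -0.13 (interval -0.33 to 0.08). Hnrnpc, which packages nascent RNA and binds uridine tracts, was at 0.04 (interval -0.19 to 0.28).

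Of the SR genes, Srsf6, whose protein carries paired RNA recognition motifs and takes part in exon choice of many genes, was the member that fell. It was at 1848, 1782 and 1506 (scurfy 1, 2 and 3) against 2350, 2129 and 2494 (wild type 1, 2 and 3). The groups did not overlap and had similar SDs, 181 and 184. The log2 fold change was -0.44 (SE 0.11, limma adjusted p = 0.0410). This call ended without any 1 of the 6 libraries, with adjusted p up to 0.129. With the length trend removed the value was -0.38 (adjusted p = 0.0796).

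Its structural relatives Srsf5 and Srsf4 had negative differences that did not pass. Srsf5 was at 3456, 3440 and 3307 (scurfy 1, 2 and 3) against 4212, 4181 and 4389 (wild type 1, 2 and 3). Both groups were tight and apart, and the log2 fold change was -0.32 (SE 0.09, limma adjusted p = 0.0648). Srsf4 was at -0.34 with overlapping groups (adjusted p = 0.245), and at -0.19 without wild-type library 1.

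Srsf3 and Srsf7 encode small SR proteins that act as adaptors for the export receptor Nxf1. Srsf3 was at 2178, 2142 and 2052 (scurfy 1, 2 and 3) against 2619, 2659 and 2773 (wild type 1, 2 and 3). Its groups were tight and did not overlap, with a log2 fold change of -0.34 (SE 0.10, limma adjusted p = 0.0633). Srsf7 was at 3576, 3938 and 3693 (scurfy 1, 2 and 3) against 3981, 4359 and 3687 (wild type 1, 2 and 3). These groups overlapped, and the log2 fold change was -0.10 (interval -0.32 to 0.12).

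Srsf10, a splicing repressor when dephosphorylated, had the most negative difference of its family. It was at 262, 287 and 299 (scurfy 1, 2 and 3) against 393, 449 and 386 (wild type 1, 2 and 3). The groups were apart, and the log2 fold change was -0.53 (SE 0.15, limma adjusted p = 0.0626). Its relative Srsf12 had the fewest reads of the 31 and the most positive difference of its family. It was at 32.7, 33.0 and 24.8 against 25.3, 38.2 and 21.8, a log2 fold change of 0.11 with an interval of -0.77 to 0.99, so a difference of the size seen in Srsf10 was not detectable at this depth.

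Srsf2, an activator of exons that also acts at paused RNA polymerase, was at -0.31 with overlapping groups (limma adjusted p = 0.194), and Srsf11 at -0.24 without overlap (0.212). Without wild-type library 3, Srsf2 was at -0.17. Srsf9 was at -0.20 with overlap, and at -0.36 to -0.03 with 1 library left out, the latter without wild-type library 3. Srsf1, the prototype of the family, was at 1315 to 1648 in scurfy and 1339 to 1450 in wild type, a log2 fold change of 0.04 (interval -0.20 to 0.29).

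Both family medians lay below those of all genes in every scurfy library and above them in every wild-type library. As log2 values relative to each gene's mean over the 6 libraries, the Hnrnp median was -0.12, -0.15 and -0.23 (scurfy 1, 2 and 3) against 0.10, 0.16 and 0.22 (wild type 1, 2 and 3). The Srsf median was -0.12, -0.14 and -0.20 in scurfy and 0.06, 0.16 and 0.18 in wild type. The median of all genes stayed between 0.01 and 0.02. Scurfy library 3 had the lowest value for 14 of 31 members and wild-type library 3 the highest for 15. Without wild-type library 3 the median log2 fold change was -0.31 for Hnrnp genes and -0.29 for Srsf genes, and without scurfy library 3 it was -0.31 and -0.28.

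**Figure D3:**
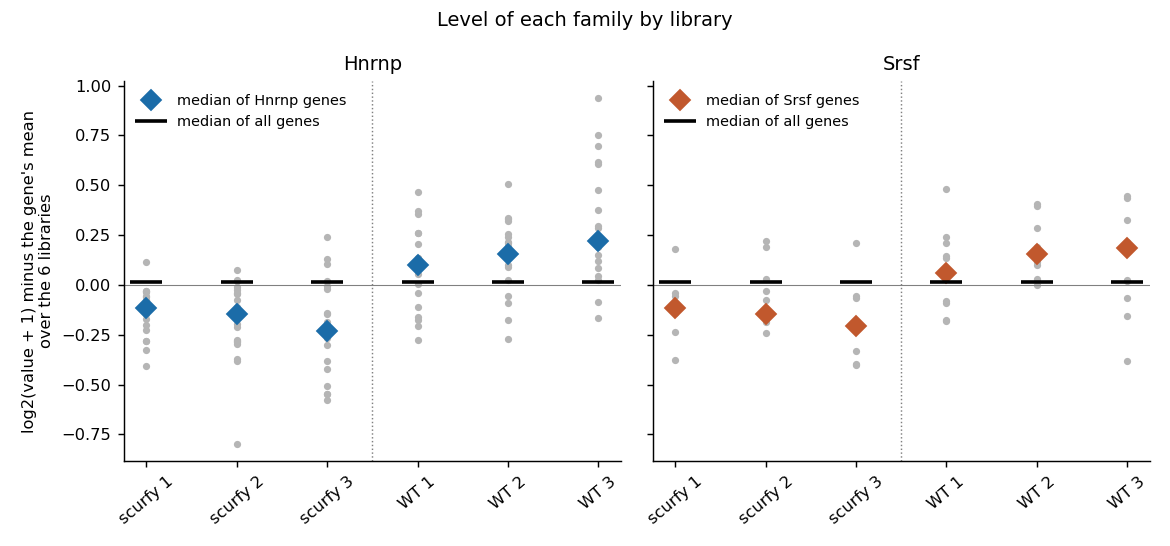
Log2(value + 1) of each member minus its mean over the 6 libraries (grey points), with the family median (diamonds) and the median of all genes (bars), Hnrnp left and Srsf right. Both family medians lie below 0 in the 3 scurfy libraries and above 0 in the 3 wild-type libraries, while the bars stay near 0.

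Close paralogues can take over each other's functions, so 13 pairs were set against each other. Compared by the log2 ratio of their values within each library, 3 of the 13 pairs had ratios that did not overlap between the groups. Of single genes, 13.7% lay below and a further 13.4% above without overlap. Both shares apply, since the direction of a ratio depends on which gene is put first. The ratio of Hnrnpul1 to Hnrnpul2 was -1.46, -1.70 and -2.01 (scurfy 1, 2 and 3) against -1.12, -0.79 and -0.74 (wild type 1, 2 and 3), a difference of -0.84. Hnrnpul2 itself was at 1204 to 1385 in scurfy and 1049 to 1642 in wild type. The ratio of Hnrnpa2b1 to Hnrnpa3 differed by -0.40, and that of Srsf3 to Srsf7 by -0.24, its groups touching at -0.71. Each of the 3 gave a two-sided exact permutation p of 0.1, the smallest that 3 against 3 libraries allows (0.433 after adjustment over the 13 pairs), so no pair could pass. For the other 10 pairs, among them Hnrnph1 to Hnrnpf (0.02) and Srsf5 to Srsf6 (0.12), the ratios overlapped between groups.

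Exonic length moved with the comparison. Across all genes the median log2 fold change went from 0.32 among the 1158 genes with the shortest exons in sum to -0.11 among the 1157 with the longest. The median exonic length was 5898 bases for Hnrnp genes and 3988 for Srsf genes, against 4075 over all genes. The 5881 genes with over 4000 exonic bases had a median of -0.05, with 56.2% negative and 3.11% lower at the threshold. With a smooth length trend taken out of each library, the family medians were -0.33 and -0.28, Hnrnpf (-0.49) and Hnrnpk (-0.60) kept their calls, and no Srsf gene passed in limma (5 at an unadjusted p under 0.05).

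**Figure D4:**
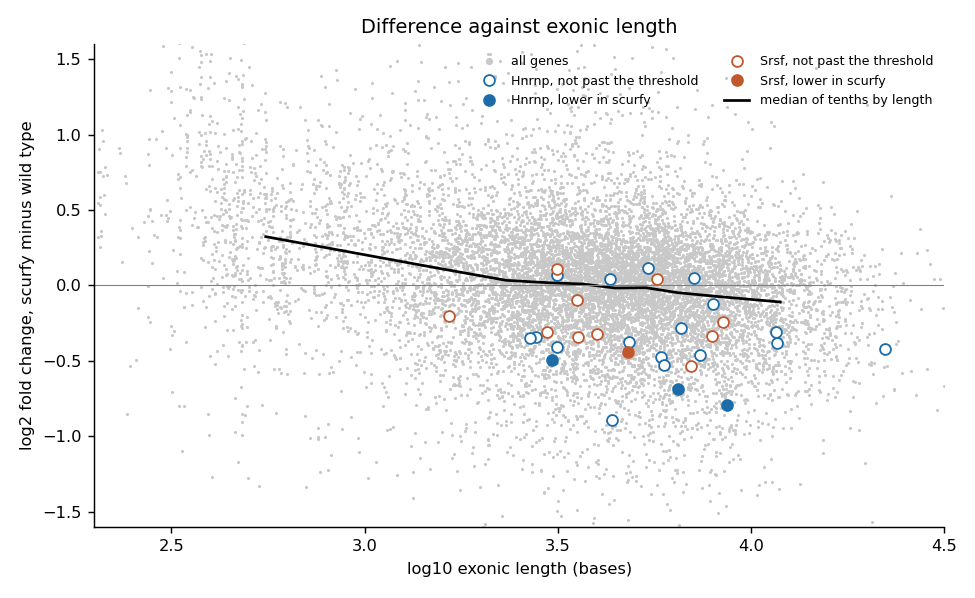
Log2 fold change, scurfy minus wild type, against log10 exonic length for all genes (grey), Hnrnp genes (blue) and Srsf genes (orange), filled where they passed, with the median of each of 10 bins of genes by length (line). 210 genes lie outside the axes, and the filled members lie below the line at their lengths.

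Scaling mattered for the count of members. On library size alone, without the size factors, the median of all genes was -0.13, and 169 genes were higher and 761 lower, against 246 and 272 with the deposited scaling. There 12 Hnrnp and 5 Srsf genes passed, all lower. Relative to the median of all genes, the Hnrnp median of -0.52 and Srsf median of -0.45 under that scaling were close to those with the size factors. The small positive values of Hnrnpa1, Hnrnpa3, Hnrnpc, Hnrnpul2, Srsf1 and Srsf12 moved with this shift of all genes, to between -0.09 and -0.02, and stayed above the median of all genes.

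**Figure D5:**
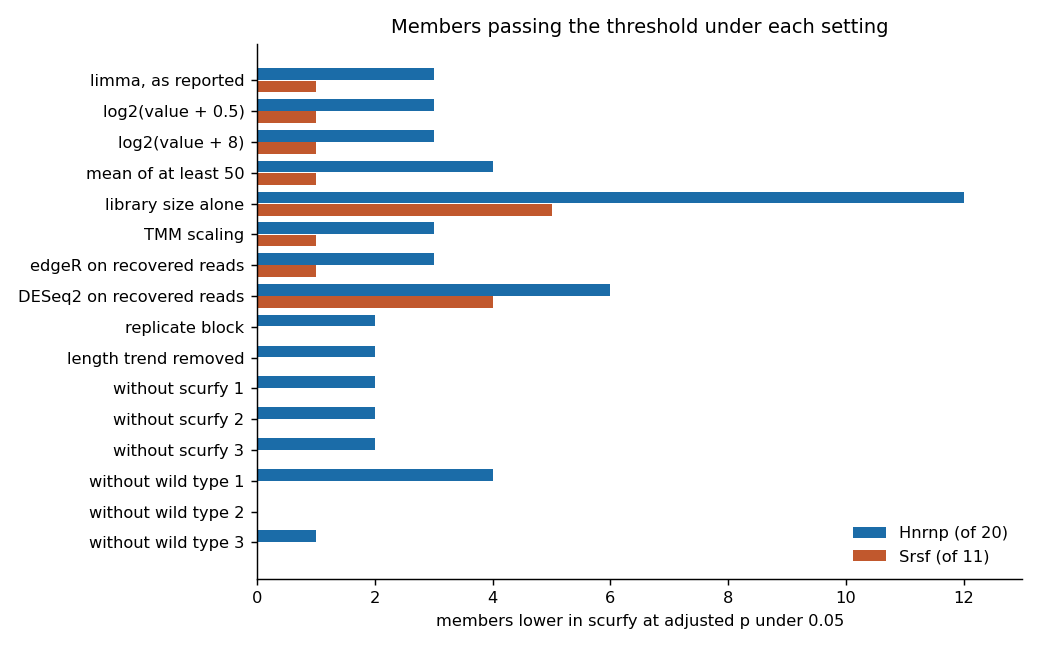
Number of Hnrnp genes (blue, of 20) and Srsf genes (orange, of 11) lower in scurfy at an adjusted p under 0.05, for the reported limma fit and each alternative. Counts run from 0 without wild-type library 2 to 12 and 5 on library size alone.

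Annotated transcript classes, which the naming rule did not use, are given here as a description. In GENCODE M21, 10 of 20 Hnrnp genes (50%) and 9 of 11 Srsf genes (81.8%) have a transcript classed as a target of nonsense-mediated decay, beside 31.3% of protein-coding genes in the table. A transcript with a retained intron is listed for 14 Hnrnp (70%) and 8 Srsf genes (72.7%), close to the 62.7% of protein-coding genes. Among genes with over 4000 exonic bases the shares were 36.1% for a decay target and 72.7% for a retained intron. The members have more listed transcripts, with medians of 8 (Hnrnp) and 7 (Srsf) against 5 over protein-coding genes, which raises the chance of finding either class. Among the genes that fell, Hnrnpk has 34 listed transcripts, of which 3 are decay targets and 13 retain an intron, whereas Hnrnpf has 10 with neither class. Hnrnpul1 has 5, of which 2 retain an intron, and Srsf6 has 4, with 1 of each class. Counts per gene add all isoforms, so the productive and unproductive forms were not measured apart. Exons of 14 members overlap exons of another gene, and for 7 of them that gene has a row, among them Hnrnpk with Rmi1 on the opposite strand (161 to 238 normalized counts in scurfy, 104 to 183 in wild type, overlapping). The strand setting of the counting is not stated in the labels or headers, so reads of such pairs may not be told apart.

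Of 38 other RNA-binding splicing regulators, 7 fell (18.4%), 1 rose and 30 did not pass, with a median log2 fold change of -0.22. Over all genes 2.35% fell and 2.12% rose. DESeq2 called 8 of the 38 lower and 2 higher, and edgeR 7 and 1. Raly, named after its values were seen, was at 0.48 (limma adjusted p = 0.0557), with all scurfy libraries above all wild-type libraries. Celf2, which regulates exons in T cell signalling genes, fell by 0.57 on the log2 scale, with 1237 ± 186 normalized counts in scurfy against 1825 ± 67.4 in wild type (SD, n = 3 each; limma adjusted p = 0.0189). Qk, a KH-domain regulator of splicing, fell by 0.79, Matr3, a nuclear matrix protein, by 0.59 and Taf15, an RNA-binding protein that also acts in transcription, by 1.37. The other 3 that fell, Sfpq, Mbnl1 and Elavl1, and the one that rose, Khsrp (1.08), were named after their values were seen. Each of these 8 calls ended without at least 3 of the 6 libraries, and Khsrp was at 0.72 without scurfy library 3. With the length trend removed the 7 were at -1.38 to -0.32, and Taf15 and Khsrp passed.

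Of 32 SR-related factors, proteins with arginine-serine stretches outside the Srsf family, 2 fell (6.25%, beside 2.35% of all genes) and 30 did not pass. The 2 were Rsrc2 (-0.52, limma adjusted p = 0.0266) and Tra2a (-0.47, 0.0495). The median of the 32 was -0.06. DESeq2 called 2 lower and 1 higher, and edgeR 2 lower. Son, named after its values were seen, was at 0.53 (limma adjusted p = 0.0594), with all scurfy libraries above all wild-type libraries. The Rsrc2 call ended without any of 5 libraries, and the Tra2a call without any of the 6. With the length trend removed Rsrc2 was at -0.42 (adjusted p = 0.0744) and Tra2a at -0.38 (0.114). None of 17 genes of nonsense-mediated decay and the exon junction complex passed in limma, and their median was 0.12. By edgeR 1 was higher, and 1 by DESeq2. At an unadjusted p under 0.05 in limma 4 differed, beside 2456 of all 11581 genes. Dhx34, Magoh and Magohb were higher and Smg1 lower, all but Dhx34 named after their values were seen. All scurfy libraries lay above all wild-type libraries for 4 of the 17 and below for 0, beside 13.4% and 13.7% of all genes. The closest to passing was Dhx34, a helicase of nonsense-mediated decay, at 0.74 (limma adjusted p = 0.0594). None of 12 genes of import, export and arginine methylation passed in limma, edgeR or DESeq2. At an unadjusted p under 0.05 in limma 2 differed, in opposite directions, beside 2456 of all 11581 genes. The closest was Tnpo3, the import receptor of SR proteins, at 763, 851 and 959 (scurfy 1, 2 and 3) against 685, 728 and 614 (wild type 1, 2 and 3). These groups did not overlap, with a log2 fold change of 0.34 and limma adjusted p = 0.148. Kpnb1, named after its values were seen, was at -0.31 (limma adjusted p = 0.210), with all scurfy libraries below all wild-type libraries.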

How the data were processed

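Per the labels' protocols, polyadenylated RNA was copied from indexed oligo-dT primers, amplified by in vitro transcription, fragmented and sequenced. Per the submitters' processing notes, Trim Galore 0.4.4, STAR 2.6, featureCounts, edgeR and DESeq2 were named, with build NCBIM37. The deposited values are a signal: read counts that the authors divided by 1 size factor per library. All nonzero values (100%) were whole multiples of 1 read within 0.01 read, and 3 reads are worth 1.45 to 3.99 normalized counts. The deposited file further holds the log2 fold change, test score and p-value of the authors.

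limma 3.58.1 (R 4.3.3) was fitted to log2(value + 1) of all 11581 genes in the 6 libraries, with a variance trend and robust moderation and no covariate. Genes differed at an adjusted p under 0.05. The other fits used edgeR 4.0.16 and DESeq2 1.42.0 on recovered reads, other pseudocounts, scalings and a filter, a replicate block, a length trend (GENCODE M21 exons) and each library left out. The fitting code was also tested on simulated data.

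The members, gene lists and paralogue pairs were chosen with earlier results of these data known. Values per library are given for members that passed, the 3 smallest p where fewer passed, the 3 highest means and the largest rise and fall of each family, and for other members where the text compares them. From each other list up to 4 passing genes, or the closest, are named. The members had 19 to 12238 reads per library, and 28 of 31 had at least 100 in every library.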

Additional observations from a re-analysis of the deposited data

How the results depend on the processing

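Both family medians stayed negative under all 15 alternatives. Leaving out 1 library gave Hnrnp medians from -0.41 to -0.31, Srsf medians from -0.34 to -0.28, 0 to 4 Hnrnp genes, 0 Srsf genes each time (4 to 6 at an unadjusted p under 0.05 in limma) and 113 to 403 genes in all. The lowest counts were 0 Hnrnp genes without wild-type library 2 (14 at an unadjusted p under 0.05) and 113 genes in all without wild-type library 3, where 1 Hnrnp gene passed. Counts in all also moved by over 1.5 times without scurfy 2 (221), scurfy 3 (230), wild type 1 (306) and wild type 2 (215). The cause was not tested. On library size alone 930 genes, 12 Hnrnp and 5 Srsf genes passed, with medians of -0.52 and -0.45. DESeq2 called 891 genes, 6 Hnrnp and 4 Srsf, and edgeR 561, 3 and 1. For the members the DESeq2 run gave the same adjusted p as the authors' deposited table, so it is not separate evidence beside that table. With the length trend removed 310 genes passed, 2 Hnrnp and 0 Srsf. With the replicate number as a block 372 genes passed, 2 Hnrnp and 0 Srsf (6 at an unadjusted p under 0.05). Libraries of the same number did not deviate together (correlations of -0.03, -0.07 and -0.15), so the numbers were not taken as pairs. Other pseudocounts, TMM and a filter at a mean of 50 gave 3 or 4 Hnrnp genes and 1 Srsf gene. Genes with few reads, Srsf12 and Hnrnph2 among them, had wide intervals.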

Other observations

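Among 10 T cell transcripts whose exons are known targets of splicing regulators, all log2 fold changes were negative, with a median of -0.21. Over all genes 48.9% were negative, and among genes with over 4000 exonic bases 56.2%. The median exonic length of the 10 was 6052.5 bases. Only Ptprc passed in limma (10%, beside 2.35% of all genes lower), while edgeR called 1 of the 10 lower and DESeq2 2. Any link of these values to the Hnrnp and Srsf differences was not tested. Ptprc, which encodes CD45 and is a textbook target of hnRNP L and hnRNP LL, was at 5424, 5470 and 4694 normalized counts (scurfy 1, 2 and 3) against 7514, 8833 and 9736 (wild type 1, 2 and 3). It fell by 0.74 on the log2 scale (SE 0.12, limma adjusted p = 0.00551). The call held without each library in turn (highest adjusted p 0.0249) and with the length trend removed (-0.58, adjusted p = 0.0257). Lef1 (-0.37, limma adjusted p = 0.0749) and Cd44 (-1.31, 0.0933) did not pass in limma. In the authors' deposited table Lef1 had an adjusted p of 0.0457 and Cd44 had none. Cd44 had few reads, at 13.3 to 18.3 normalized counts in scurfy and 30.2 to 50.5 in wild type. Values per gene hold no measure of exon use, so the isoforms of these transcripts were not examined here. The OT-1 marrow donors carry both CD45 alleles, whereas the other marrow donors and the hosts are CD45.2+. The labels do not give the share of each source in a library, and reads of the alleles were not told apart.

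Of the 10 CD8 T cell markers, Cd3d (0.76) and Cd2 (0.43) rose, beside 2.12% of all genes, and 8 did not pass. Their median log2 fold change was 0.21, with 1 of the 10 negative and Cd8b1 at 0.00. All scurfy libraries lay above all wild-type libraries for 5 of the 10, beside 13.4% of all genes, and below for 0. DESeq2 called 3 of the 10 higher and edgeR 2. Among genes named for other cells, H2-Aa fell by 3.97, Car2 fell by 1.12 and Cst3 rose by 0.59. The Cd3d call held without each library in turn and the Cd2 call ended each time. That of Cst3 ended without scurfy 2, scurfy 3 or wild type 2, that of H2-Aa without wild type 2 or 3, and that of Car2 without wild type 3. On library size alone Cd2 (0.29, adjusted p = 0.0991) and Cst3 (0.45, 0.0529) did not pass, nor with the length trend removed (0.31, 0.124 and 0.42, 0.0901). The value of H2-Aa, with few reads, ran from -4.91 to -2.56 over the alternatives.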
